A study of Homo sapiens with 75 samples.

Results

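The genes that open S phase and copy the genome were followed in 5 established human lines of mantle cell lymphoma, REC-1, JEKO-1, Z138, HBL-2 and GRANTA-519, after treatment with antibodies against CD20. A fixed list of 41 genes was used, and every probe set annotated to a single symbol among them was taken: 80 of the 54675 probe sets on the array. Of these, 77 passed the filter on dim signals, and all 41 genes were among the 13879 genes tested. Each line was given GA101 (obinutuzumab, a humanized glycoengineered antibody against CD20), rituximab (a chimeric antibody against CD20), the combination of both, an isotype control antibody or PBS. Each of the 25 line and treatment groups had 3 arrays, which makes 75 arrays, 15 per treatment. The labels give 10 µg/ml for each CD20 antibody, and state neither a dose for the isotype control nor an exposure time. Whether the 3 replicates of a group came from separate cultures is not said, so a p-value here weighs a difference against array-to-array spread that may be technical in origin. All groups share the same culture medium with 20% serum, and each line stands for itself alone as a model of the disease. Levels are intensities as deposited, on a linear scale. Differences are log2 ± the standard error, and a gene is said to have risen or fallen where limma's adjusted p over all 13879 genes was under 0.05.

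Passage from G1 into S phase is driven by cyclin E with its kinase partner and by E2F transcription factors, which switch on most of the machinery of DNA replication. Origins are licensed in G1 when the origin recognition complex, CDC6 and CDT1 load the MCM helicase. The helicase is activated in S phase by CDC45, the GINS complex and MCM10, and polymerases, the PCNA clamp and its loader then copy the DNA, fed by nucleotide synthesis and packaged by histone chaperones. Mantle cell lymphoma carries a translocation that places cyclin D1 under an immunoglobulin enhancer, which acts on the same G1 control.

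Promoter sequence was looked at because the members are usually described as E2F targets. The RefSeq table (GRCh38.p14) held a window from 250 bases before to 50 bases after the start for 36 of the 41 members, 46 windows in all; MCM5, MCM4, E2F8, CCNE2 and GINS4 are named here without one. The letters TTTCCCGC, TTTCGCGC, TTTGCCGC or TTTGGCGC on either strand, forms of the E2F motif, were present for 22 of 36 members (61.1%), for 3 of 20 mitotic genes with a window (15%) and for 1090 of 27305 genes (3.99%). The CCAAT letters on either strand were found for 63.9% of members, 90% of the mitotic genes and 39.7% of all genes. The letters TTTGAA or TTTAAA on either strand, as in the cell cycle homology region of mitotic promoters, were found for 16.7% of members, 85% of the mitotic genes and 27.9% of all genes. Matches of different motifs may overlap in a window, and a match is a description of the letters, not of a bound site. The segments below run from 100 bases before to 20 bases after a start, 5′ to 3′ on the gene's strand. They are shown for some of the genes that the results name, mostly ones with a match, and capitals mark the E2F letters.
UHRF1 at chr19:4909401-4909520, plus strand: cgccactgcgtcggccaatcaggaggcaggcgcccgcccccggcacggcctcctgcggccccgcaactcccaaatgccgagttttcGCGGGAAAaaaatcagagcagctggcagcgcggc
PCNA at chr20:5126603-5126722, minus strand: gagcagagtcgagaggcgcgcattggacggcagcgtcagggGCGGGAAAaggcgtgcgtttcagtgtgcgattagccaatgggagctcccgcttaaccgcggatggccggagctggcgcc
RFC3 at chr13:33818049-33818168, plus strand: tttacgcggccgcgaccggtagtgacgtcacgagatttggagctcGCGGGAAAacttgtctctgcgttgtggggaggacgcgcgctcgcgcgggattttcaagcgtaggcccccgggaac
POLE2 at chr14:49688195-49688314, minus strand: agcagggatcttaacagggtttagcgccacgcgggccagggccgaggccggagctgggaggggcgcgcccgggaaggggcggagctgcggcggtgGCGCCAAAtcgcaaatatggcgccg
CDC6 at chr17:40287779-40287898, plus strand: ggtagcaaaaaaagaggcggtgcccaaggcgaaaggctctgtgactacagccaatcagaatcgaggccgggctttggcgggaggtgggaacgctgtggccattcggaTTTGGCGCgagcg
DTL at chr1:212035648-212035767, plus strand: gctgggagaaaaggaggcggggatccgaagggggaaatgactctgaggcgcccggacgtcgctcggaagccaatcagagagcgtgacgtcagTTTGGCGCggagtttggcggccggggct
UNG at chr12:109098072-109098191, plus strand: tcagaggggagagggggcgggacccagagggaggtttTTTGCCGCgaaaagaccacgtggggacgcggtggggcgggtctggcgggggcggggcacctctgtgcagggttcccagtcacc
GINS1 at chr20:25407573-25407692, plus strand: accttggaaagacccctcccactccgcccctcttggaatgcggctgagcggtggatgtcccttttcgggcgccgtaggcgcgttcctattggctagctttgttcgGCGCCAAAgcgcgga
ORC6 at chr16:46689559-46689678, plus strand: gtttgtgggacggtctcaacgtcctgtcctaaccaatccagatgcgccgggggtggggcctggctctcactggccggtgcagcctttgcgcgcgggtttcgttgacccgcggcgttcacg
The ORC6 segment holds none of these letters, and the GINS1 segment holds them just after the start. No window of RRM2, PRIM1, SLBP or RFC4 holds them, and these genes are not shown. UNG, PCNA and UHRF1 each have a further window without a match.

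The arrays were of similar quality. The mean intensity was 171.985 to 172.014 on every array, the result of the authors' scaling, and the median ranged from 11.06 to 17.42. Precision is limited by there being 3 arrays per group. The mean log2 ratio of 3′ to 5′ actin probe sets was 0.89 with GA101, 0.90 with rituximab and 0.91 with the combination, against 0.98 with isotype and 0.99 with PBS; its part in the results was not tested. The summed intensity of the 5 B cell markers on the array (of 6 listed) lay between 6539.27 and 13547.4 per array. MS4A1, the gene of CD20, had a mean of 4810 in HBL-2 to 6262 in GRANTA-519, while the mean of CD22 was 27.3 in Z138 and 860 in GRANTA-519. The summed T cell markers (4 of 5 on the array) lay between 14.85 and 119.84, the myeloid markers (4 of 4) between 9.58 and 135.57, the erythroid marker (1 of 3) between 17.08 and 54.74, and the epithelial and fibroblast markers (5 of 5) between 71.03 and 198.02, with ranges that overlapped between all treatments. Of the mantle cell lymphoma markers, cyclin D1 (CCND1) and SOX11 were detected in every line, while the mean intensity of CD5 was 7.67 in HBL-2 and at most 23.5, in REC-1. In such bulk RNA, fewer cells in S phase and less RNA per cell cannot be told apart.

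Without antibody against CD20, the lines differed from each other in every member. Over the isotype and PBS arrays, 6 per line, limma's F test between lines passed for 41 of 41 members, where 86.8% of all genes passed. REC-1 stood out by low levels: 30 members were lower and 7 higher there than in the mean of the other 4 lines, and the median difference was -0.34. Of all genes 31.7% were lower in REC-1 and 64.9% differed in either direction. JEKO-1 had 24 members higher and 12 lower (64.3% of all genes differed), Z138 19 and 9 (64.6%), GRANTA-519 18 and 15 (67.9%), and HBL-2 17 and 16 (61.7%). REC-1 was the lowest line for 19 members and the highest for 2, whereas JEKO-1 was the highest for 15 and the lowest for 9.

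**Figure D1:**
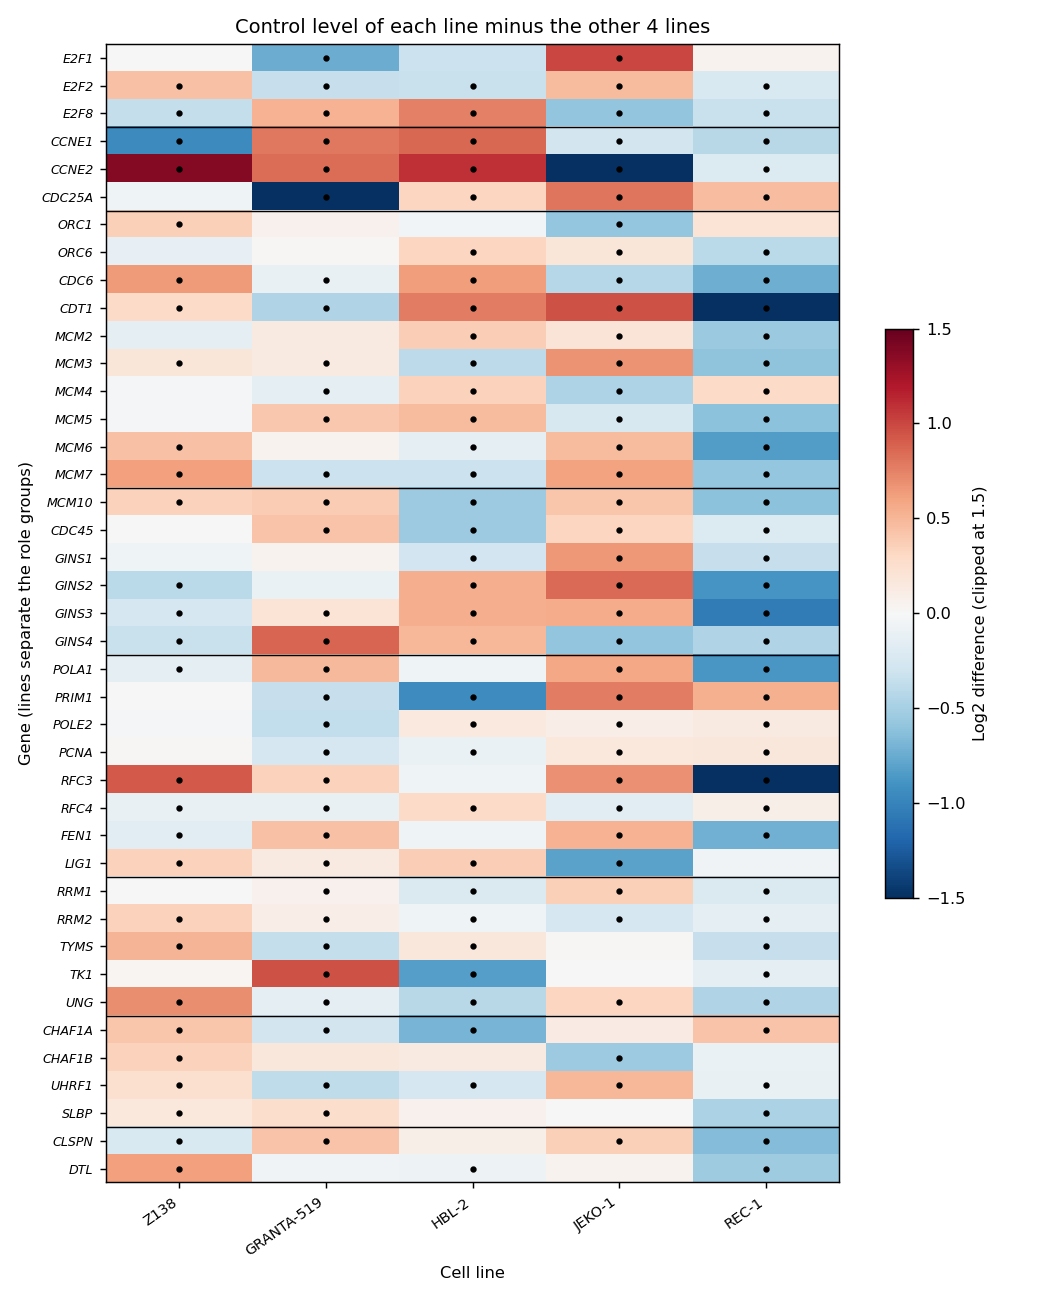
Control level of each of the 41 genes in each line minus the mean of the other 4 lines (colour, log2 difference, isotype and PBS arrays together, n = 6 per line, drawn up to 1.5 either way), with rows grouped by role and dots where limma's adjusted p was under 0.05. The REC-1 column holds 30 called lower differences, and the JEKO-1 value of CCNE2 is -3.11.

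The range between the highest and the lowest line had a median of 0.92 over the members and 1.24 over all genes. It was smallest for the clamp PCNA, at 0.33 (1.26-fold), where neighbouring lines in the order all overlapped, from 3645 ± 284 in GRANTA-519 to 4582 ± 131 in REC-1 (mean ± SD, n = 6). It was largest for cyclin E2, CCNE2, at 3.60 (12.1-fold). CCNE2 stood at 574 ± 63.0 in Z138, 490 ± 31.7 in HBL-2, 426 ± 59.6 in GRANTA-519, 240 ± 40.5 in REC-1 and 47.7 ± 7.23 in JEKO-1. The 3 highest lines overlapped with their neighbours, while REC-1 and JEKO-1 lay apart.

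The other cyclin E gene, CCNE1, had another order: it was highest in HBL-2 (171 ± 7.93) and GRANTA-519 (165 ± 17.5), which overlapped, and lowest in Z138 (62.1 ± 6.22). Levels of different probe sets are not set against each other, so the orders of lines are all that can be compared. The clamp loader subunit RFC3 (F = 746, adjusted p = 5.24e-46) ran from 2277 ± 203 in Z138 and 2003 ± 186 in JEKO-1, which overlapped, to 483 ± 46.2 in REC-1, apart from every other line. The primase subunit PRIM1 (F = 413) ran the other way in REC-1: it stood at 991 ± 38.3 in JEKO-1 and 867 ± 55.9 in REC-1, which overlapped, and at 385 ± 31.2 in HBL-2.

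CDT1, which loads the helicase with CDC6, was 720 ± 96.3 in JEKO-1, 648 ± 50.3 in HBL-2, 500 ± 85.6 in Z138, 330 ± 31.4 in GRANTA-519 and 180 ± 32.2 in REC-1; the first 3 overlapped with their neighbours and the last 2 lay apart. The helicase subunit MCM6 (F = 250) lay between 3187 ± 140 in JEKO-1 and 1534 ± 136 in REC-1, where JEKO-1 and Z138 overlapped and the other neighbours lay apart. Thymidylate synthase, TYMS (F = 250), was highest in Z138 (5240 ± 159), and REC-1 (3278 ± 103) and GRANTA-519 (3228 ± 191) overlapped at the bottom. The atypical repressor E2F8 was 1136 ± 80.0 in HBL-2 and 998 ± 61.3 in GRANTA-519, which overlapped, apart from 623 ± 35.5 in REC-1, 610.5 ± 28.7 in Z138 and 539 ± 55.2 in JEKO-1. UHRF1, which binds half-methylated DNA behind the fork, was highest in JEKO-1 (3257 ± 196) and lowest in GRANTA-519 (1995 ± 113).

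Per line, the largest differences from the other lines were CCNE2 (1.38), RFC3 (0.92) and the uracil glycosylase UNG (0.70) upwards in Z138, and CCNE1 (-0.96), GINS2 (-0.40) and E2F8 (-0.36) downwards. GRANTA-519 was high in thymidine kinase TK1 (0.95), GINS4 (0.87) and CCNE2 (0.84) and low in the phosphatase CDC25A (-1.52), E2F1 (-0.75, adjusted p = 0.00143) and CDT1 (-0.45). E2F1 missed the threshold there when the array of PBS replicate 1 of GRANTA-519 was left out (adjusted p = 0.069). HBL-2 was high in CCNE2 (1.10), CCNE1 (0.86) and CDT1 (0.77) and low in PRIM1 (-0.94), TK1 (-0.83) and the chaperone subunit CHAF1A (-0.70). JEKO-1 was high in E2F1 (1.0), CDT1 (0.95) and GINS2 (0.85) and low in CCNE2 (-3.11), the ligase LIG1 (-0.80) and E2F8 (-0.59). REC-1 was high in PRIM1 (0.53), CDC25A (0.46) and CHAF1A (0.43) and low in RFC3 (-1.88), CDT1 (-1.56) and GINS3 (-1.05).

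The 2 controls were not equal for these genes, which bears on every later comparison. With isotype, 7 of the 41 members were higher than with PBS over the 5 lines and 0 lower by limma, and 12 had an unadjusted p under 0.05. Of all genes 6.46% passed, 2.16% upwards and 4.29% downwards. The median difference was 0.04 over members and -0.01 over all genes. CDC6 was highest: its isotype arrays ran from 158.54 through a median of 265.68 to 431.60, and its PBS arrays from 166.59 through 229.46 to 368.25. The arrays of the treatments overlap because the lines differ, but the difference was positive in 5 of 5 lines, with no overlap between the 3 arrays of each group in 4 of them (0.21 ± 0.0323, adjusted p = 4.49e-06).

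POLE2, a subunit of the leading-strand polymerase, separated the controls in every line. Its isotype arrays were 469, 435 and 444 in Z138 against 380, 368 and 377 with PBS, and 379, 354 and 364 in GRANTA-519 against 323, 296 and 323. POLE2 was 469, 452 and 480 against 442, 425 and 449 in HBL-2, 452, 480 and 497 against 392, 395 and 429 in JEKO-1, and 462, 515 and 448 against 421, 425 and 438 in REC-1. No isotype array of a line overlapped with its PBS arrays (0.19 ± 0.0230, 1.14-fold, adjusted p = 9.27e-09). The other members that rose were CCNE2 (0.20 ± 0.0503, adjusted p = 0.00629), CDT1 (0.18, adjusted p = 0.0193), RFC3 (0.15, 0.000273), the licensing regulator DTL (0.14, 6.2e-05) and TYMS (0.06, 0.00726). CDT1 was lost without isotype replicate 1 of REC-1 (adjusted p = 0.0567). Each antibody was therefore set against both controls, and the 3 comparisons with a control use the same control arrays.

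Over the 5 lines, GA101 lowered more of these genes than it raised when isotype was the control, and few when PBS was. Against isotype 16 of 41 members fell and 3 rose, where 5.77% of all genes fell and 12.5% rose (18.2% in either direction). The median was -0.07 over members and 0.02 over all genes. Against PBS 4 fell and 3 rose, where 3.31% of genes fell and 7.26% rose (10.6% in all), and the median was -0.02 against 0.02. Rituximab lowered 15 and raised 2 against isotype (6.9% and 13.8% of all genes, 20.7% in all; median -0.05 against 0.02) and lowered 6 and raised 1 against PBS (3.85% and 8.26%, 12.1% in all; median -0.02 against 0.01). The combination lowered 13 and raised 1 against isotype (6.01% and 11.4%, 17.4% in all; median -0.06 against 0.02) and lowered 3 and raised 0 against PBS (2.84% and 5.69%, 8.53% in all; median -0.03 against 0.01). In that last comparison 10 members had an unadjusted p under 0.05.

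**Figure D2:**
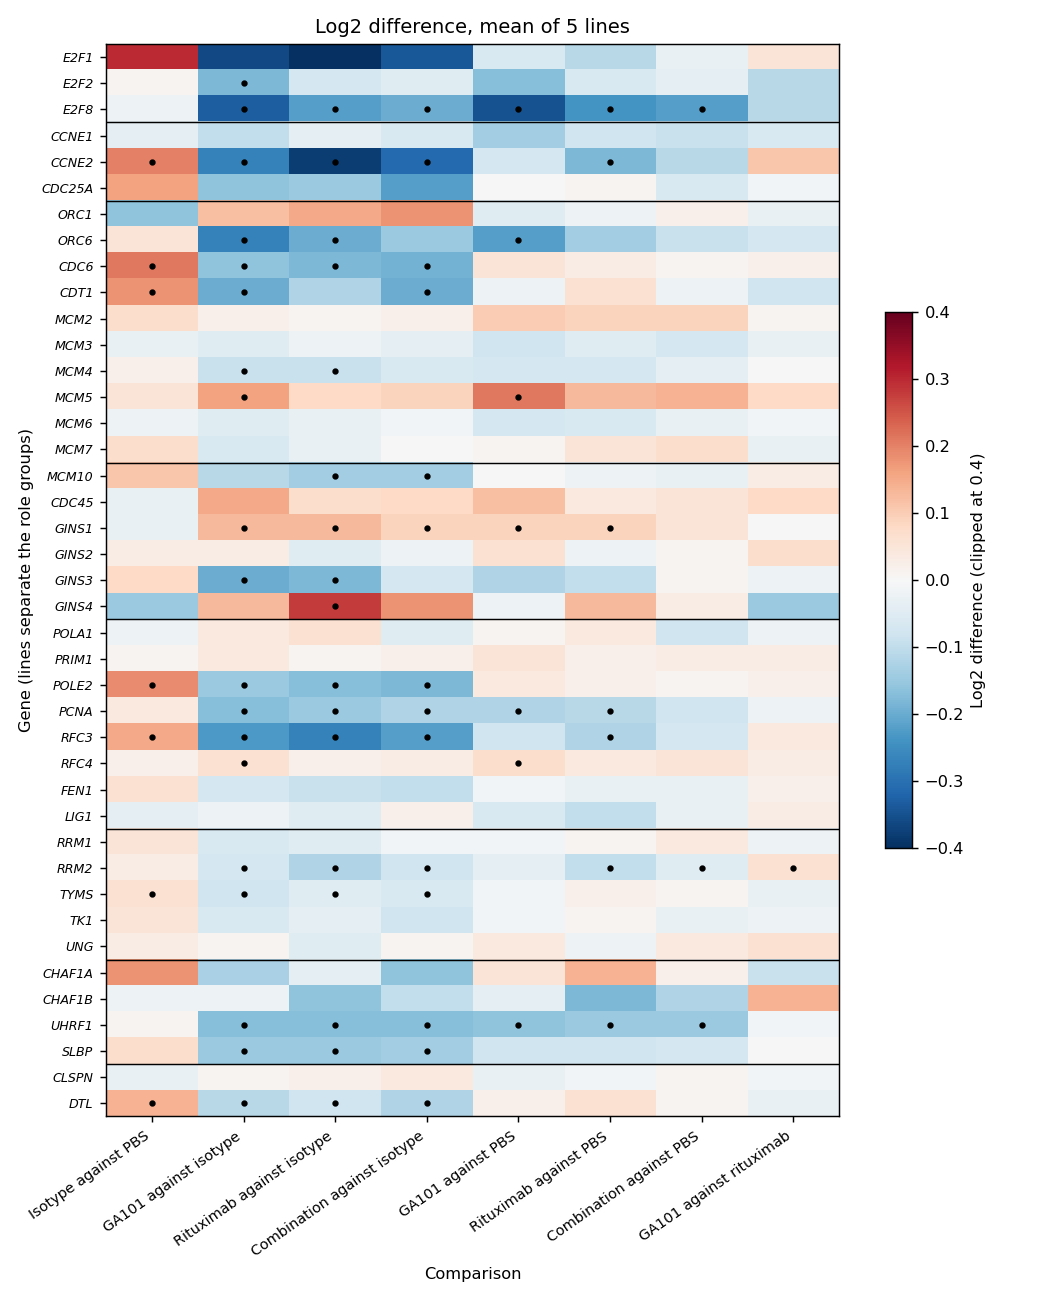
Mean log2 difference over the 5 lines (colour, drawn up to 0.4 either way) of the 41 genes in 8 comparisons, with rows grouped by role and dots where limma's adjusted p was under 0.05. Dots are fewer in the 3 columns against PBS (7, 7 and 3) than in the 3 against isotype (19, 17 and 14), and the isotype against PBS column holds 7 dots, all higher.

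Among the E2F factors, E2F8 had the largest called fall with GA101 against either control. E2F8 is an atypical E2F that represses its targets and is itself transcribed at G1/S. Its 15 GA101 arrays ran from 317.82 through a median of 522.84 to 969.33, and its isotype arrays from 476.56 through 666.37 to 1257.69. The PBS arrays ran from 530.72 through 640.12 to 1167.02, and all ranges overlap because HBL-2 and GRANTA-519 are high. Within lines E2F8 was lower than isotype in 4 of 5, without overlap in 3 (-0.33 ± 0.0382, 0.796-fold, adjusted p = 8.27e-10). Against PBS it was lower in 5 of 5 lines, without overlap in 4 (-0.35 ± 0.0382, 0.784-fold, adjusted p = 5.64e-10).

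The rituximab arrays of E2F8 ran from 421.17 through 521.15 to 1000.52, and the combination arrays from 444.78 through 529.50 to 1020.59. E2F8 fell with rituximab by 0.22 against isotype (adjusted p = 8.8e-06) and by 0.24 against PBS (4.43e-06), and with the combination by 0.20 (3.92e-05) and 0.22 (2e-05). The activator E2F2 fell with GA101 against isotype (-0.18 ± 0.0606, adjusted p = 0.029), and was lower in 4 of 5 lines. E2F1, the best-known activator, did not pass: its difference from isotype was -0.36 ± 0.168 with GA101 (95% interval -0.70 to -0.02, adjusted p = 0.143), -0.41 with rituximab (0.078) and -0.34 with the combination (0.186). In all, 2 of 3 E2F genes fell with GA101 against isotype, 1 with rituximab and 1 with the combination.

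**Figure D3:**
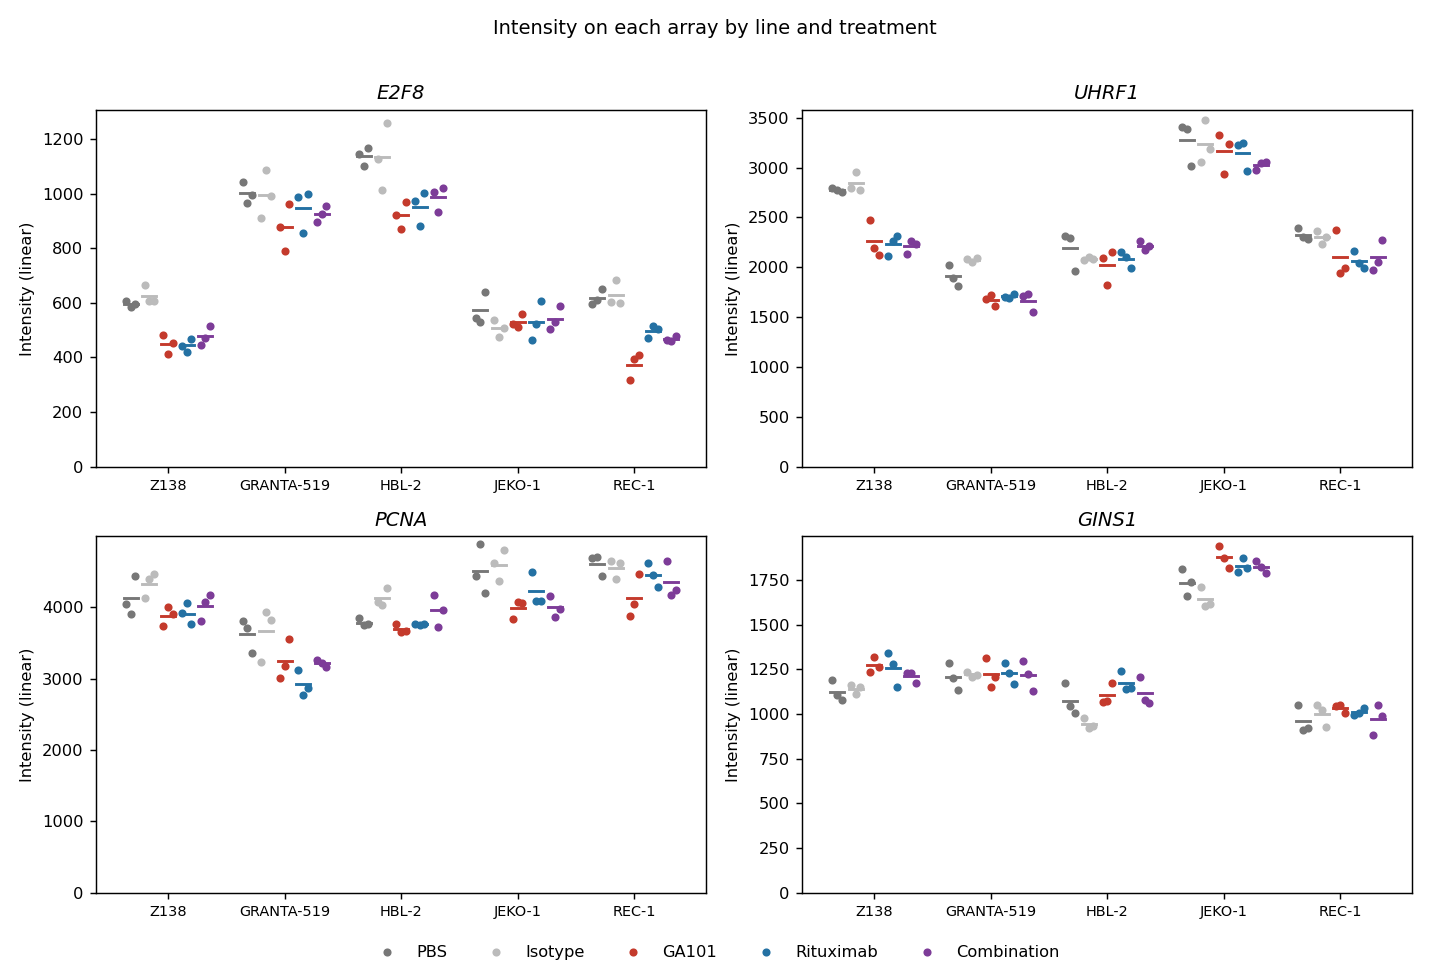
Intensity on a linear scale of E2F8, UHRF1, PCNA and GINS1 on each of the 75 arrays, by line and treatment (points are arrays, bars are means of 3). The GA101 points of E2F8 in REC-1 lie at 318, 394 and 407, under all 6 control points of that line.

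Of cyclin E and its activating phosphatase, the cyclin gene CCNE2 alone fell (1 of 3 with each treatment against isotype). Its arrays ran from 45.49 through 356.12 to 513.80 with GA101, from 27.81 through 380.89 to 483.35 with rituximab and from 36.55 through 357.32 to 549.10 with the combination. The isotype arrays of CCNE2 ran from 38.78 through 466.44 to 665.40 and the PBS arrays from 42.76 through 393.94 to 546.44. The lowest values of every treatment are JEKO-1 arrays, so the ranges overlap. CCNE2 fell by 0.38 with rituximab (0.767-fold, adjusted p = 1.53e-08), by 0.31 with the combination (2.91e-06) and by 0.27 with GA101 (4.46e-05) against isotype. Against PBS it fell with rituximab alone among the 3 (-0.18, adjusted p = 0.00877). That call rests on the brighter CCNE2 probe set: the second gave -0.02 (0.964). CCNE1 was -0.10 (adjusted p = 0.321) and CDC25A, which removes the inhibitory phosphates from the kinase, -0.16 (0.25) with GA101 against isotype.

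In origin licensing, 4 of 10 genes fell and 1 rose with GA101 against isotype, 3 fell with rituximab and 2 with the combination. ORC6, a subunit of the origin recognition complex, ran from 593.15 through 969.51 to 1237.25 with GA101, from 808.26 through 1158.24 to 1385.11 with isotype and from 785.43 through 1045.22 to 1662.71 with PBS. It was lower with GA101 in 5 of 5 lines, without overlap in 2 against isotype (-0.27 ± 0.0594, adjusted p = 0.00042) and in 1 against PBS (-0.22, 0.00976). With rituximab ORC6 fell against isotype (-0.20, 0.0105).

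CDC6 fell with all 3 treatments against isotype: by 0.16 with GA101 (adjusted p = 0.000202), by 0.18 with rituximab (2.4e-05) and by 0.19 with the combination (4.77e-06). This is the gene with the largest called difference between isotype and PBS, and against PBS it passed with none of them over all lines. CDT1 fell with GA101 (-0.20, adjusted p = 0.00356) and the combination (-0.20, 0.00262). The helicase subunit MCM4 fell by 0.09 with GA101 (0.0479) and by 0.09 with rituximab (0.0359). The second MCM4 probe set gave 0.00 and -0.02.

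MCM5, another helicase subunit, went the other way. Its GA101 arrays ran from 435.29 through 860.57 to 1150.51, its isotype arrays from 444.91 through 693.48 to 1149.30 and its PBS arrays from 434.64 through 713.12 to 965.50, with REC-1 lowest. MCM5 rose by 0.21 ± 0.0586 against PBS (1.16-fold, adjusted p = 0.0105), higher in 4 of 5 lines. The second MCM5 probe set gave 0.04 against PBS (0.779), so this call too rests on the brighter one. The rise against isotype (0.16 ± 0.0586, adjusted p = 0.0478) was lost in 18 of 30 fits that each left out 1 array, with a highest adjusted p of 0.103. MCM6, whose probe set had the highest mean signal among the licensing genes, was -0.05 (adjusted p = 0.215) and MCM2 0.02 (95% interval -0.09 to 0.13) with GA101 against isotype.

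Genes of helicase activation moved both ways. GINS1, a subunit of the GINS complex that joins the helicase, had GA101 arrays from 1008.72 through 1206.76 to 1942.29, isotype arrays from 924.52 through 1149.47 to 1713.13 and PBS arrays from 911.86 through 1135.57 to 1810.00. GINS1 was higher with GA101 than with isotype in 5 of 5 lines, without overlap in 3 (0.13 ± 0.0275, 1.09-fold, adjusted p = 0.000444). It rose by 0.13 with rituximab (0.0003) and by 0.09 with the combination (0.0216), and against PBS by 0.09 with GA101 (0.0191) and by 0.09 with rituximab (0.0147). The call with the combination was lost in 4 of 30 fits that left out 1 array.

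GINS4 rose with rituximab against isotype: its rituximab arrays ran from 63.14 through 83.81 to 158.53 and its isotype arrays from 48.50 through 67.34 to 142.83 (0.28 ± 0.0778, 1.22-fold, adjusted p = 0.00473). It was higher in 5 of 5 lines, but without overlap in 1. The second GINS4 probe set gave 0.15 (0.422), which did not pass. GINS3 fell with GA101 (-0.20 ± 0.0671, adjusted p = 0.029) and with rituximab (-0.18, 0.0497), calls that were lost in 4 and 19 of 30 fits without 1 array. Neither passed on the second GINS3 probe set (-0.09, 0.496, and -0.04, 0.815). The initiation factor MCM10 fell with rituximab (-0.14, 0.0456) and the combination (-0.14, 0.0416). On the second MCM10 probe set these were 0.01 and -0.02. CDC45 was 0.15 (0.14) with GA101. In all 1 of 6 rose and 1 fell with GA101 against isotype, 2 rose and 2 fell with rituximab, and 1 rose and 1 fell with the combination.

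Among the polymerases, clamp, clamp loader and ligation genes, 3 of 8 fell with each treatment against isotype and RFC4 rose with GA101. PCNA, the sliding clamp, whose probe set had the highest mean signal in this group, ran from 3007.46 through 3842.59 to 4461.24 with GA101, from 3229.22 through 4370.70 to 4800.16 with isotype and from 3359.41 through 4041.93 to 4888.49 with PBS. It was lower with GA101 than either control in 5 of 5 lines (-0.17 ± 0.0274, adjusted p = 4.05e-06, against isotype and -0.12, 0.0013, against PBS). With quantile normalization the fall from PBS no longer passed (-0.08, 0.0623). PCNA fell with rituximab too (-0.15, 1.77e-05, and -0.11, 0.0041), and with the combination against isotype (-0.12, 0.00049).

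RFC3 ran from 374.78 through 1496.72 to 2210.74 with GA101, from 462.81 through 1419.57 to 1951.68 with rituximab, from 467.01 through 1563.16 to 2048.47 with the combination and from 455.81 through 1688.98 to 2495.22 with isotype. REC-1 gives all of the lowest values. Against isotype it fell by 0.23 (adjusted p = 1.65e-08), 0.27 (1e-10) and 0.22 (4.84e-08) with GA101, rituximab and the combination, and against PBS by 0.12 with rituximab (0.00308). These values come from the brightest of 3 RFC3 probe sets, with a mean intensity of 1439. The second gave -0.16, -0.24 and -0.20 against isotype, and the third, with a mean intensity of 64.5, 0.69, 0.77 and 0.68.

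POLE2 ran from 316.47 through 408.22 to 450.24 with GA101, from 318.26 through 401.68 to 461.10 with rituximab and from 311.46 through 401.10 to 457.91 with the combination. The isotype arrays of POLE2 ran from 353.72 through 451.96 to 514.73 and the PBS arrays from 295.82 through 395.09 to 448.78, so the isotype arrays were the high ones. POLE2 fell against isotype by 0.15 (adjusted p = 5.83e-07), 0.17 (4.06e-08) and 0.18 (5.54e-09), and no treatment passed against PBS. RFC4 rose slightly with GA101, by 0.06 ± 0.0179 against isotype (adjusted p = 0.02) and 0.07 against PBS (0.00407), the latter without overlap in 4 of 5 lines. The rise over isotype was lost without isotype replicate 3 of JEKO-1 (adjusted p = 0.0521). The flap nuclease FEN1 was -0.07 (0.272) and LIG1 -0.02 (0.803) with GA101 against isotype.

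In nucleotide supply and uracil removal, RRM2 and TYMS fell with all 3 treatments against isotype, and RRM1, TK1 and UNG passed with none over all lines. RRM2, the small subunit of ribonucleotide reductase, ran from 1901.43 through 2381.11 to 3089.68 with GA101, from 1883.38 through 2330.28 to 2874.20 with rituximab, from 2129.82 through 2510.80 to 3152.93 with isotype and from 2119.73 through 2402.54 to 3089.22 with PBS. Its mean change was small, -0.07 with GA101 (adjusted p = 0.00325), -0.12 with rituximab (4.14e-08) and -0.08 with the combination (0.000151), and the lines did not move alike. Against PBS it fell by 0.10 with rituximab (3.76e-05) and by 0.05 with the combination (0.0346), the latter lost in 13 of 30 fits without 1 array. TYMS, whose probe set had the highest mean signal in this group, fell by 0.08 (0.00027), 0.05 (0.0322) and 0.06 (0.00959) against isotype. The other TYMS probe sets had the opposite sign. The second, with a mean intensity of 1115, gave 0.05, 0.04 and 0.05, and the third, at 13.7, 0.43, 0.24 and 0.61. RRM1 was -0.06 with GA101 (0.0509).

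For chromatin and histone supply, UHRF1 and SLBP fell with every treatment against isotype (2 of 4). UHRF1 ran from 1614.58 through 2118.29 to 3321.85 with GA101, from 1694.69 through 2116.31 to 3247.39 with rituximab and from 1550.02 through 2216.44 to 3054.09 with the combination. Its isotype arrays ran from 2054.91 through 2306.80 to 3477.78 and its PBS arrays from 1817.12 through 2318.12 to 3410.15. UHRF1 fell by 0.17 with GA101 (adjusted p = 5.48e-06), 0.17 with rituximab (7.18e-06) and 0.17 with the combination (9.71e-06) against isotype, and by 0.16 (6.63e-05), 0.15 (6.08e-05) and 0.15 (9.63e-05) against PBS. E2F8 and UHRF1 thus fell with all 3 treatments against either control. SLBP, which binds the stem-loop of histone mRNAs, fell by 0.15 (0.000147), 0.15 (0.000142) and 0.14 (0.000294) against isotype. CHAF1A was -0.13 with GA101 (0.18) and CHAF1B -0.02 (0.938).

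Of the fork checkpoint and licensing turnover genes, DTL, the receptor that directs CDT1 to degradation at PCNA, fell against isotype by 0.11 with GA101 (adjusted p = 0.00042), 0.08 with rituximab (0.0145) and 0.12 with the combination (9.03e-05). CLSPN, the checkpoint mediator claspin, was 0.01 with GA101 (0.97). GA101 and rituximab were also set against each other. Of 41 members 1 differed, RRM2, which was higher with GA101 by 0.06 ± 0.0171 (adjusted p = 0.0471) in 5 of 5 lines. Of all genes 2.23% differed, 1.23% upwards and 1% downwards, and 5 members had an unadjusted p under 0.05. The RRM2 difference was lost in 21 of 30 fits without 1 array.

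Another 67 genes of the cell cycle entry and replication pathways were tested. With GA101 12 fell and 7 rose against isotype, where 5.77% and 12.5% of all genes did. With rituximab 15 fell and 12 rose (6.9% and 13.8%), and with the combination 17 and 8 (6.01% and 11.4%). Against PBS these counts were 3 and 7 (3.31% and 7.26%), 8 and 10 (3.85% and 8.26%), and 4 and 7 (2.84% and 5.69%). The mitotic list, 25 genes of spindle, kinetochore and chromosome segregation, went the opposite way against isotype: 21 rose and 0 fell with GA101 (24 had an unadjusted p under 0.05), with a median of 0.22. Rituximab raised 20 (median 0.23) and the combination 21 (0.23). With isotype itself 21 of them were lower than with PBS (median -0.22), where 4.29% of all genes were. Against PBS GA101 raised 1 of them and lowered 3 (median -0.02). On the mean over all lines, GA101 thus lay near PBS for most mitotic genes, and isotype lay apart. The same held for POLE2 and CDC6 among the members, in the other direction. REC-1 was an exception: there many mitotic genes fell with GA101 against PBS, as given below. What set the isotype arrays apart was not tested.

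In Z138 most calls against isotype were falls. There 9 members fell and 2 rose with GA101 (1.86% of all genes fell, 10.4% changed in either direction), 13 fell and 3 rose with rituximab (4.21% fell, 12.6% changed), and 12 fell and 1 rose with the combination (10.5% changed). Against PBS 2 fell with GA101 (3.79%), 3 with rituximab (4.09%) and 2 with the combination (2.45%). E2F8 was 481, 414 and 454 with GA101, 444, 421 and 468 with rituximab and 445, 473 and 516 with the combination, against 666, 606 and 605 with isotype and 605, 584 and 596 with PBS. No treated array of E2F8 reached a control array (GA101 -0.48 ± 0.0853, adjusted p = 4.32e-05, against isotype and -0.41, 0.00135, against PBS).

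UHRF1 in Z138 was 2477, 2196 and 2118 with GA101 against 2796, 2957 and 2772 with isotype and 2798, 2775 and 2753 with PBS, again without overlap (-0.33, adjusted p = 0.000166, and -0.30, 0.00192). With rituximab it fell by 0.35 and 0.32, and with the combination by 0.36 and 0.33. CCNE2 was 513, 462 and 514 with GA101, 427, 432 and 438 with rituximab, 665, 625 and 588 with isotype and 546, 513 and 509 with PBS. Its fall from isotype was -0.53 with rituximab (adjusted p = 0.000432) and -0.34 with GA101 (0.0426), the latter lost in each of 6 fits without 1 array. RFC3 fell by 0.43 with rituximab (1.89e-06), and CDT1 by 0.56 with the combination (0.000481). SLBP fell by 0.23 with rituximab against PBS (0.0365), a call lost in 5 of 6 fits without 1 array.

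A few Z138 members rose against isotype. POLA1, the catalytic subunit of the priming polymerase, rose by 0.41 ± 0.111 with GA101 (adjusted p = 0.00885) and by 0.38 with rituximab (0.0149). PRIM1, its primase partner, was 746, 719 and 701 with GA101 and 731, 726 and 687 with rituximab against 618, 618 and 607 with isotype, and 681, 667 and 660 with PBS. It rose by 0.23 (0.00175), 0.22 (0.00303) and by 0.24 with the combination (0.00129) over isotype. With quantile normalization POLA1 (0.31, 0.103) and PRIM1 (0.18, 0.0514) no longer passed with GA101. Against PBS PRIM1 was 0.11 with GA101 (0.33). GINS4 was 81.2, 83.5 and 111 with rituximab against 65.8, 52.6 and 67.3 with isotype (0.56 ± 0.174, 0.0211). Its second probe set gave -0.08 (0.931). The POLA1 call with either antibody and the GINS4 call were each lost in 2 of 6 fits without 1 array. Between the controls CDT1 (0.42, 0.0376) and POLE2 (0.26, 0.00113) were higher with isotype (2 of 41, where 2.14% of genes differed). GA101 and rituximab differed in 0 members by limma (1.68% of genes), and 4 had an unadjusted p under 0.05.

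REC-1 had the largest single falls, with GA101. Against isotype 8 members fell and 1 rose (7.14% of all genes fell, 11.7% changed), and against PBS 4 fell and 1 rose (9.54%). E2F8 was 318, 394 and 407 with GA101, 603, 682 and 598 with isotype and 595, 610 and 652 with PBS. It fell by 0.76 ± 0.0853 (adjusted p = 1.19e-09) and by 0.74 (2.72e-09). With rituximab E2F8 was 470, 514 and 506, between GA101 and the controls, and GA101 was lower than rituximab by 0.42 (adjusted p = 0.00138). Without GA101 replicate 1 of REC-1 that last difference missed the threshold (adjusted p = 0.052).

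GINS3 in REC-1 was 131, 79.7 and 90.4 with GA101 against 173, 146 and 154 with isotype (-0.68 ± 0.150, adjusted p = 0.000928), but the PBS arrays were 152, 77.0 and 149. It was lower with GA101 than with rituximab by 0.59 (0.0155), a call lost in 4 of 6 fits without 1 array. The second GINS3 probe set gave 0.16 against isotype (0.727) and -0.06 against rituximab, neither of which passed. ORC6 was 620, 593 and 793 with GA101 against 808, 1164 and 997 with isotype (-0.56, 0.00198). CLSPN was 43.2, 40.3 and 43.7 against 66.7, 62.2 and 47.6 with isotype and 59.8, 68.2 and 62.8 with PBS (-0.46, 0.0088, and -0.58, 0.000779), lower in every array. The second CLSPN probe set gave -0.12 against PBS (0.941), which did not pass. GINS3 and E2F8 were the 2 of 41 that differed between GA101 and rituximab, where 3.13% of genes did.

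On its brighter probe set RRM2 fell in REC-1 with every treatment. It was 1927, 1901 and 1981 with GA101, 1950, 1935 and 1883 with rituximab and 1968, 1999 and 1961 with the combination, against 2346, 2274 and 2317 with isotype and 2403, 2359 and 2256 with PBS. Every treated array lay under every control array (GA101 -0.26 ± 0.0382, adjusted p = 1.36e-06, against isotype and -0.27, 3.85e-07, against PBS). On the second RRM2 probe set rituximab did not pass (-0.06, 0.766, against isotype and -0.15, 0.129, against PBS). Nor did the combination against isotype (-0.14, 0.213). That probe set gave -0.17 and -0.26 with GA101 against isotype and PBS, and -0.23 with the combination against PBS. UNG rose instead: it was 1084, 987 and 1084 with GA101 against 901, 864 and 754 with isotype and 848, 841 and 914 with PBS (0.33, 0.000359, and 0.28, 0.00331).

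Rituximab lowered 2 REC-1 members and raised 1 against isotype (2.06% of all genes fell, 5.17% changed): E2F8 by 0.34 (adjusted p = 0.00872), RRM2 by 0.27 (1.12e-06) and UNG up by 0.23 (0.0345), the last with arrays that overlap. The E2F8 and UNG calls were lost in 2 and 3 of 6 fits without 1 array. Against PBS E2F8 (-0.32) and RRM2 (-0.28) fell (2 of 41, 4.55% of genes). The combination lowered CCNE2 (-0.43), E2F8 (-0.42) and RRM2 (-0.23) and raised UNG (0.32) against isotype (4 of 41, 4.98% of genes), and lowered E2F8 (-0.40) and RRM2 (-0.24) and raised UNG (0.27) against PBS (3 of 41, 3.57%). Isotype and PBS differed in 0 members by limma (0.454% of genes), and 8 had an unadjusted p under 0.05. MCM6 fell with GA101 against PBS (-0.19, 0.0149). The second MCM6 probe set, with a mean intensity of 92.6, had the opposite sign (0.18).

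With antibody, GRANTA-519 members fell and none rose by limma. Against isotype 6 members fell with GA101 (0.576% of all genes fell, 3.05% changed), 9 with rituximab (0.908% and 4.2%) and 6 with the combination (2.27% changed). With GA101 the largest were CHAF1A (-0.49 ± 0.145, adjusted p = 0.0437), CCNE2 (-0.40, 0.0351) and UHRF1 (-0.31, 0.00177). The CHAF1A call was lost in 4 and the CCNE2 call in 5 of 6 fits without 1 array. On their second probe sets CHAF1A (-0.23, 0.942) and CCNE2 (-0.31, 0.657) did not pass, and the third CHAF1A probe set gave 0.05. UHRF1 was 1685, 1727 and 1615 with GA101 and 1698, 1695 and 1734 with rituximab against 2083, 2055 and 2095 with isotype and 2027, 1895 and 1817 with PBS. PCNA was 3123, 2768 and 2868 with rituximab against 3229, 3941 and 3824 with isotype and 3806, 3709 and 3359 with PBS, lower on every array (-0.32, 0.000408, and -0.31, 0.00229).

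Against PBS rituximab lowered 4 GRANTA-519 members (1.33% of genes): PCNA, UNG (-0.25, adjusted p = 0.0374), SLBP (-0.25, 0.0491) and RRM2 (-0.17, 0.0105). The UNG call was lost in 4 and the SLBP call in 5 of 6 fits without 1 array. For RRM2 the second probe set had the opposite sign (0.14). UNG was 818, 899 and 817 with rituximab against 997, 1025 and 1059 with isotype and 1083, 1003 and 937 with PBS. GA101 and the combination passed for 0 members against PBS by limma (0.49% and 0.375% of genes), with 8 and 5 at an unadjusted p under 0.05. DTL was 1238, 1123 and 1120 with isotype against 959, 931 and 976 with PBS (0.28, 0.00156), and with POLE2 (0.22, 0.0146) it made 2 members higher with isotype (0.821% of genes differed). DTL with GA101 was 945, 1004 and 962, near PBS and under isotype (-0.26, 0.00225). The combination lowered CCNE2 (-0.40), UHRF1 (-0.32) and CDC6 (-0.31) most against isotype, and the CCNE2 call was lost in each of 6 fits without 1 array. GA101 and rituximab differed in 0 members (limma, 0.108% of genes), with 3 at an unadjusted p under 0.05.

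HBL-2 members moved little and partly upwards. With GA101 2 fell and 1 rose against isotype (2.77% of all genes fell, 5.71% changed), a share near that of all genes: E2F8 (-0.30, adjusted p = 0.0227), RFC3 (-0.27, 0.004) and GINS1 (0.22, 0.0155). Against PBS ORC6 (-0.45, 0.0355) and E2F8 (-0.31, 0.0208) fell and DTL rose (0.22, 0.00745), 3 of 41 where 4.28% of genes changed. E2F8 was 920, 869 and 969 with GA101 against 1128, 1014 and 1258 with isotype and 1145, 1102 and 1167 with PBS, lower on every array. Among the 6 fits that left out 1 array, the E2F8 call was lost in 4 against either control, that of GINS1 in 3, of ORC6 in 4 and of DTL in 1.

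With rituximab GINS1 (0.31 ± 0.0615, adjusted p = 0.000151), DTL (0.21, 0.00529) and RFC4 (0.15, 0.00867) rose in HBL-2 and RFC3 (-0.21, 0.0322) fell against isotype (3.51% of genes fell, 9.78% changed). DTL was 1288, 1208 and 1231 with rituximab against 1092, 1069 and 1059 with isotype and 1026, 979 and 973 with PBS, higher on every array (0.32, 1.35e-05, against PBS). RFC4 (0.14) and TYMS (0.11, 0.0492) rose and E2F8 (-0.26, 0.049) fell against PBS, so 4 of 41 passed (7.44%). The combination raised E2F2 (0.51 ± 0.136, 0.00806) and GINS1 (0.24, 0.00645) and lowered RFC3 (-0.24) against isotype (3 of 41, 8.44%), and raised DTL (0.24, 0.00187), RRM2 (0.13, 0.0252) and TYMS (0.12, 0.0373) against PBS (3 of 41, 7.18%). CDC6 was higher with isotype than PBS (0.29, 0.0258; 1 of 41, 1.28%), and GA101 and rituximab differed in 0 members (limma, 1.81%), with 1 at an unadjusted p under 0.05. Without 1 array, the E2F8 call with rituximab against PBS was lost in each of 6 fits, and the TYMS and RFC3 calls with rituximab in 5. With the combination those of TYMS and RRM2 were lost in 4, that of E2F2 in 2 and that of RFC3 in 1. The CDC6 call between the controls was lost in 5.

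JEKO-1 likewise had few changes. With GA101 PCNA (-0.20, adjusted p = 0.026), POLE2 (-0.17, 0.028) and TYMS (-0.12, 0.0253) fell and GINS1 (0.19, 0.0424) rose against isotype (1.75% of all genes fell, 7.17% changed). Each of these 4 calls was lost in 4 or 5 of 6 fits without 1 array. Against PBS CDC6 (0.24, 0.0385) and RFC4 (0.14, 0.0275) rose with GA101 (2 of 41, 4.58%). E2F8 passed against neither control here: it was 523, 511 and 557 with GA101 against 536, 477 and 507 with isotype and 546, 531 and 640 with PBS, which overlap. The CDC6 and RFC4 calls were lost in 5 and 4 of 6 fits without 1 array.

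CCNE2 was already low in JEKO-1 and lower still with rituximab, at 36.1, 27.8 and 33.5 against 59.7, 38.8 and 45.4 with isotype and 42.8, 50.1 and 49.3 with PBS (-0.55 ± 0.112, adjusted p = 0.000477, and -0.55, 0.000874). With GA101 it was 49.4, 45.5 and 47.0, higher than with rituximab by 0.55 (0.00582; 1 of 41, 0.483% of genes), a call lost in 2 of 6 fits without 1 array. The second CCNE2 probe set gave -0.53 (0.259) against isotype, -0.09 (0.986) against PBS and 0.16 for GA101 over rituximab, none of which passed. Rituximab also lowered RFC3 (-0.32, 0.000417) and POLE2 (-0.25, 0.000556) against isotype (3 of 41; 2.98% of genes fell, 7.48% changed), and CCNE2 was the 1 member that passed against PBS (3.96%). The combination lowered POLE2 (-0.26), RFC3 (-0.21) and PCNA (-0.20) against isotype (3 of 41, 6.07%) and 0 members against PBS by limma (3.85% of genes), with 6 at an unadjusted p under 0.05. CDC6 (0.26, 0.0359), RFC3 (0.24, 0.0359) and POLE2 (0.23, 0.0044) were higher with isotype than PBS (3 of 41, 2.04%). Without 1 array, the RFC3 call with the combination was lost in each of 6 fits and the PCNA call in 4, and between the controls those of RFC3 and CDC6 were lost in 5 and 4.

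**Figure D4:**
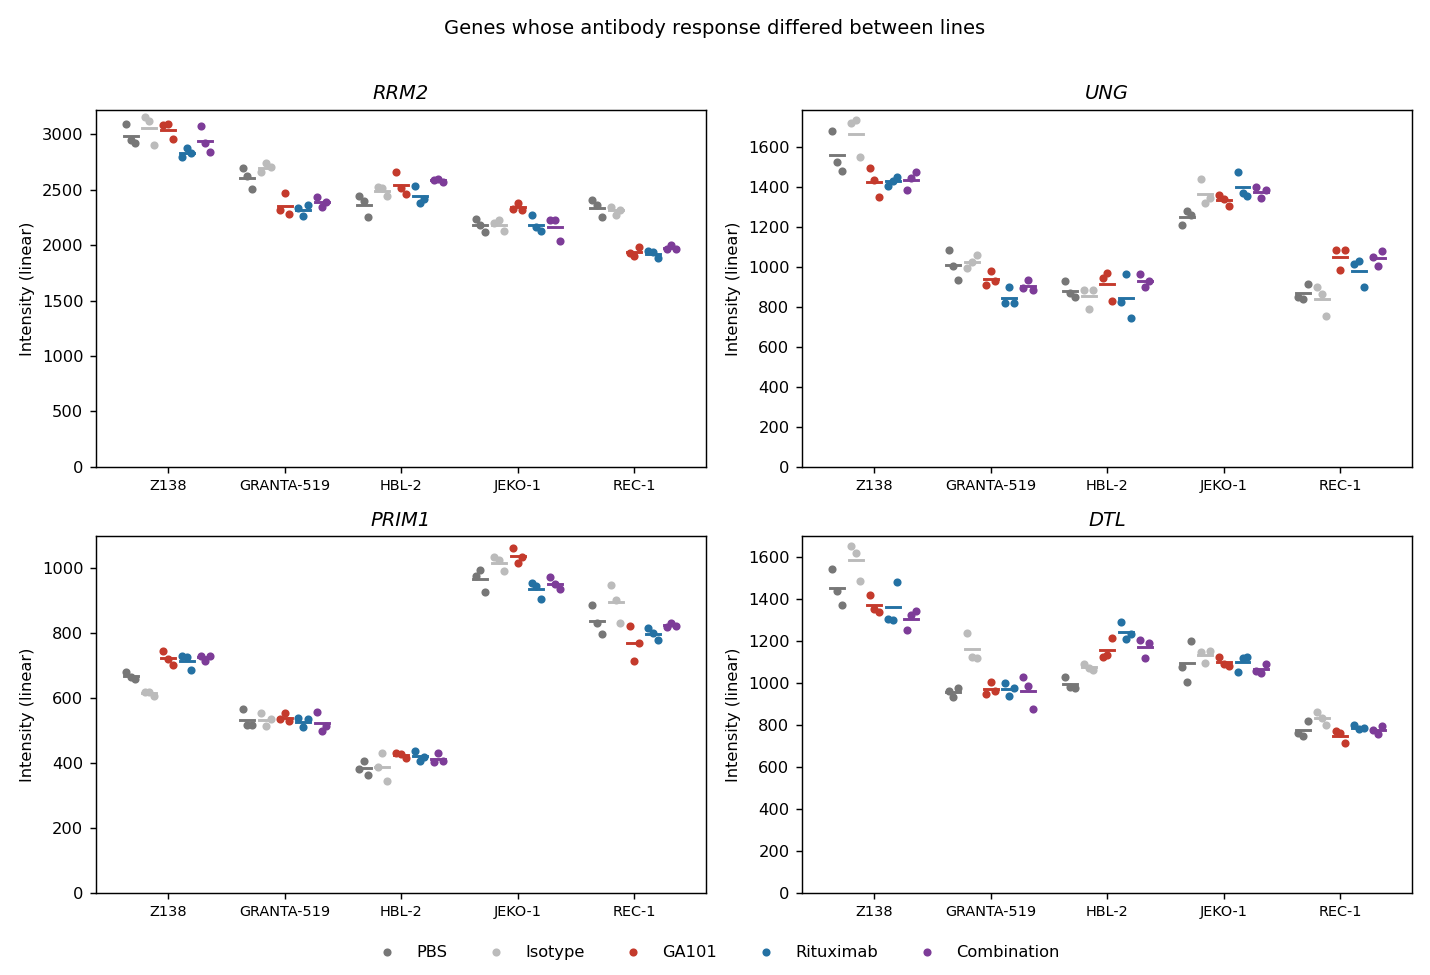
Intensity on a linear scale of RRM2, UNG, PRIM1 and DTL on each of the 75 arrays, by line and treatment (points are arrays, bars are means of 3). In REC-1 the antibody points of RRM2 lie under the control points and the GA101 points of UNG (987 to 1084) above them, and in HBL-2 the rituximab points of DTL (1208 to 1288) lie above all control points.

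Whether the lines responded differently was tested directly, with limma's F test of the antibody minus isotype difference over the 5 lines. With GA101 8 of 41 members passed, where 14.1% of all genes did: RRM2 (F = 16.2, adjusted p = 6.58e-07), E2F8 (13.1, 7.3e-06), UNG (10.1, 0.000111), PRIM1 (9.91, 0.000135), DTL (7.31, 0.00162), UHRF1 (4.93, 0.0184), CLSPN (4.65, 0.0242) and POLA1 (3.98, 0.0474). Against PBS 6 passed (11% of genes), RRM2 (19.3, 8.59e-08) first and E2F8 (8.2, 0.000955), UNG, PRIM1, DTL and CLSPN with it. The E2F8 difference with GA101 was -0.76 in REC-1, -0.48 in Z138, -0.30 in HBL-2, -0.18 in GRANTA-519 and 0.07 in JEKO-1. RRM2 was lower in GRANTA-519 (-0.20) and REC-1 (-0.26) and stood at -0.01 in Z138, 0.03 in HBL-2 and 0.10 in JEKO-1. On its second probe set RRM2 did not pass the F test, with F = 4.23 with GA101 (adjusted p = 0.0622) and 1.44 with rituximab (0.646).

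UNG and PRIM1 had called changes from isotype of opposite sign in Z138 and REC-1. UNG with GA101 fell by 0.22 in Z138, where it was 1497, 1436 and 1348 against 1720, 1735 and 1549 with isotype, and rose by 0.33 in REC-1. PRIM1 rose by 0.23 in Z138 and fell by 0.22 in REC-1, where it was 823, 713 and 771 against 950, 902 and 832 with isotype and 886, 833 and 797 with PBS. Against PBS UNG passed in REC-1 (0.28) but not in Z138 (-0.13), and PRIM1 in neither (-0.13 and 0.11). The 2 genes are neighbours in no role group: UNG removes uracil from DNA, and PRIM1 makes the RNA primers.

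With rituximab 12 of 41 members passed the F test (11.5% of all genes): DTL (11.6, adjusted p = 2.89e-05), RRM2 (9.23, 0.000268), UNG (9.21, 0.000272), PRIM1 (8.95, 0.000348), E2F8 (6.47, 0.0041), POLE2 (6.29, 0.00503), MCM6, SLBP, UHRF1, RFC4, CDT1 and GINS1. Against PBS 6 passed (8.85%): RRM2 (12.1), DTL (8.3), UNG (7.72), SLBP (6.9), CCNE2 (4.57) and RFC4 (4.27). DTL with rituximab was 0.21 in HBL-2, -0.04 in JEKO-1, -0.08 in REC-1, -0.22 in Z138 and -0.26 in GRANTA-519 against isotype. Against PBS it was 0.32, 0.01, 0.02, -0.09 and 0.02 in these lines, so the HBL-2 rise is in either comparison and the falls are against isotype. In the same order of lines POLE2 was -0.04, -0.25, -0.06, -0.35 and -0.14 against isotype and 0.05, -0.02, 0.08, -0.09 and 0.08 against PBS.

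**Figure D5:**
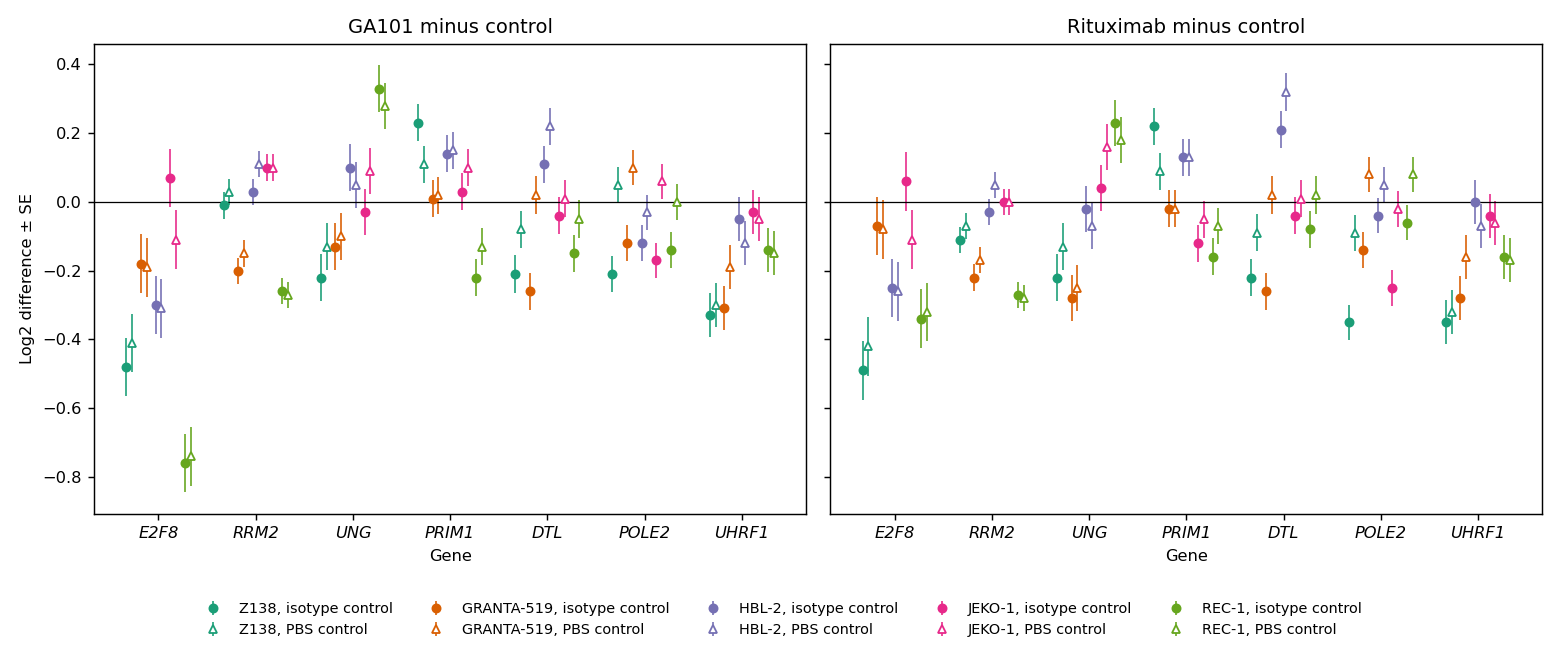
Log2 difference ± SE in each line with GA101 and with rituximab, against isotype (filled) and PBS (open triangles), for E2F8, RRM2, UNG, PRIM1, DTL, POLE2 and UHRF1. E2F8 with GA101 reaches -0.76 and -0.74 in REC-1, and the isotype and PBS symbols of POLE2 lie apart in Z138 (-0.35 and -0.09 with rituximab).

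Of the other lists, 13 of 67 pathway genes and 17 of 25 mitotic genes passed the F test with GA101 (14.1% of all genes). With rituximab 7 and 15 passed (11.5%). The mitotic median with GA101 against isotype was 0.53 in JEKO-1 (23 rose, where 7.17% of all genes changed). It was -0.06 in REC-1 (2 rose and 4 fell, where 11.7% changed). Against PBS 14 mitotic genes fell in REC-1 with GA101 (median -0.21, where 9.54% of all genes changed), the line in which E2F8 and RRM2 fell most.

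Some values rest on the choice of probe set. Of the 41 genes, 17 have 1 probe set, among them E2F8, UHRF1, PCNA, ORC6, POLE2, GINS1 and SLBP, and 23 have another that passed the filter. Of 59 called changes against other passing probe sets of the same gene, 20 had the opposite sign. The second probe set gave -0.35, -0.33 and -0.30 for CCNE2 and -0.32, -0.21 and -0.27 for CDT1 with GA101, rituximab and the combination against isotype. For RRM2 it gave -0.03, 0.03 and -0.03, for DTL -0.02, -0.02 and -0.04, and for CDC6 -0.05, -0.03 and -0.09. TYMS had 0.05, 0.04 and 0.05 on it. MCM4 had 0.00 with GA101 and -0.02 with rituximab, and MCM10 0.01 with rituximab and -0.02 with the combination. For RRM2, DTL, CDC6, TYMS, MCM4 and MCM10 these values of the second probe set were thus smaller than the called falls or of opposite sign. The smaller CDC6 fall with the combination still passed on it. CCNE2 and CDT1 were lower on both probe sets.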

How the data were processed

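RNA of 75 samples was measured on Affymetrix 3′ arrays. The deposited values are intensities that the authors scaled per array with MAS5, per the submitters' processing notes. Probe sets were named by the platform annotation: 41097 of 54675 had 1 symbol, 1801 several and 11777 none, and 41043 of the first matched a current gene by Entrez ID, with 0 symbols changed. Values under 1 were set to 1 and log2 was taken, with no further normalization of the deposited intensities. Genes were kept where the mean of a line's 15 arrays was above log2 3.5477 (intensity 11.694) in at least 1 line, which left 26555 probe sets, and each gene was read from its brightest passing probe set (the highest mean log2). limma 3.58.1 (R 4.3.3) was fitted with 25 group means and a mean-variance trend (50 residual degrees of freedom). Tests are two-sided, with Benjamini-Hochberg adjustment over the 13879 genes of a comparison at 0.05. The steps were tested on simulated data.

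Genes were named by rule: over all lines the 6 largest called changes in each direction, in single lines the 3 largest, between lines the 6 largest F values, and the member with the highest mean of each role group. Members and lists were chosen with earlier results of these data known. Alternatives were the replicate number as a block, quantile normalization, averaging the passing probe sets of a gene, leaving off the filter, log2 of the intensity plus 16, array weights, a fit on one line's arrays, each array left out and, chosen after seeing the data, the second probe set. Over all genes tested, same-numbered arrays of a line deviated together weakly at most, and the numbers were not taken as pairs. Some counts of members were higher with the replicate block, as given below.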

Additional observations from a re-analysis of the deposited data

Results flagged for a closer look

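The responses of the lines to GA101 differed beyond the spread between arrays for 8 of 41 members (14.1% of all genes) by limma's F test of the difference itself (adjusted p under 0.05). The F values were 16.2 for RRM2, 13.1 for E2F8, 10.1 for UNG, 9.91 for PRIM1, 7.31 for DTL and 4.93 for UHRF1. The responses to rituximab differed for 12 members (11.5% of all genes), with F values of 11.6 for DTL, 9.23 for RRM2, 9.21 for UNG, 8.95 for PRIM1, 6.47 for E2F8 and 6.29 for POLE2. With its second probe set RRM2 passed in neither (F = 4.23, adjusted p = 0.0622 with GA101, and 1.44, 0.646 with rituximab). UNG and PRIM1 are the pair whose called changes from isotype with GA101 had opposite signs in Z138 (-0.22 for UNG and 0.23 for PRIM1) and REC-1 (0.33 and -0.22). Against PBS these were -0.13 for UNG and 0.11 for PRIM1 in Z138, and 0.28 and -0.13 in REC-1, of which the 0.28 of UNG passed.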

How the results depend on the processing

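Counts of called members moved by over 1.5 times as follows; the cause was not tested unless an alternative has fewer arrays or genes by construction. With the second probe set, GA101 against isotype gave 11 of 41 over all lines in place of 19 and 18 in place of 33 line-wise calls (summed over the 5 lines), rituximab against isotype 18 line-wise in place of 35, the combination 17 in place of 29, isotype against PBS 3 in place of 7 and 4 line-wise in place of 8, rituximab against PBS 8 line-wise in place of 14, GA101 against rituximab 0 in place of 1 (5 had an unadjusted p under 0.05 in the limma fit), and the GA101 response between lines 5 in place of 8. With the replicate block, GA101 against PBS gave 11 in place of 7 and 21 line-wise in place of 12, the combination against PBS 6 in place of 3, and GA101 against rituximab 2 in place of 1 and 6 line-wise in place of 3. Same-numbered arrays of a line had a median correlation of 0.00 to 0.03, and differently numbered ones of -0.02 to 0.00. These correlations run over all genes tested, where a deviation shared by number was weak. Whether the members share one was not tested, and the numbers were not taken as pairs. Rituximab against PBS line-wise gave 9 without the filter, 8 with the mean of probe sets, 8 on one line's arrays and 9 to 14 with 1 array left out. Array weights gave 5 for the combination against PBS and 13 line-wise for isotype against PBS, for which the mean of probe sets gave 5 and one line's arrays 4. GA101 against rituximab gave 2 with quantile normalization, 0 without the filter and 0 with the mean of probe sets, and 1 line-wise on one line's arrays. Leaving out 1 array gave 16 to 20 calls for GA101, 13 to 17 for rituximab and 12 to 16 for the combination against isotype, 7 to 9, 7 to 8 and 2 to 5 against PBS, 6 to 8 for isotype against PBS and 0 to 1 for GA101 against rituximab. Single-line counts moved more. With GA101 against isotype the 11 calls in Z138 went to 7 without isotype replicate 1, the 6 in GRANTA-519 to 3 without GA101 replicate 2, the 3 in HBL-2 to 1 without isotype replicate 3, the 4 in JEKO-1 to 0 without GA101 replicate 1, and the 9 in REC-1 to 14 without isotype replicate 3. With rituximab the 16 in Z138 went to 10 without rituximab replicate 1, the 9 in GRANTA-519 to 5 without rituximab replicate 2, and the 3 in REC-1 to 1 without rituximab replicate 1. With the combination the 3 in HBL-2 and the 3 in JEKO-1 each went to 1, without combination replicates 1 and 2. Against PBS rituximab went from 4 to 1 in GRANTA-519 (without PBS replicate 1) and in HBL-2 (without rituximab replicate 1). The other single-line counts that moved were of 3 calls or fewer. With array weights 12 members fell with GA101 in REC-1 and 11 in Z138.

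Signs turned with the probe set. With the mean of probe sets, RFC3 became 0.10 (GA101 against isotype, all lines) and 0.10 (HBL-2), 0.09, 0.04, 0.14 and 0.18 (rituximab, all lines, Z138, HBL-2 and JEKO-1), 0.09, 0.01 and 0.22 (combination, all lines, HBL-2 and JEKO-1), 0.03 (rituximab against PBS), and -0.06 and -0.08 (isotype against PBS, all lines and JEKO-1), and E2F2 with the combination in HBL-2 -0.08. With the second probe set, GINS3 (GA101, REC-1) became 0.16, GINS4 (rituximab, Z138) -0.08, E2F2 -0.05, RRM2 0.08 (rituximab against PBS), 0.01 (combination against PBS) and -0.06 (GA101 against rituximab), TYMS (rituximab against PBS, HBL-2) 0.00, and the GRANTA-519 control differences of GINS4 -0.08 and CDT1 0.34.

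Quantile normalization evened the split of all genes, but not that of the members. Higher and lower calls among all genes went from 1728 and 801 to 1238 and 1083 (GA101), 1910 and 957 to 1552 and 1234 (rituximab) and 1576 and 834 to 1268 and 1055 (combination) against isotype, and from 1007 and 459 to 579 and 720, 1146 and 535 to 812 and 791, and 790 and 394 to 593 and 577 against PBS. Members then stood at 1 higher and 17 lower, 2 and 15, and 1 and 15 against isotype, and 3 and 6, 2 and 8, and 0 and 4 against PBS.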
